A study of Mus musculus with 18 samples.

Results

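Water and ion transport across the gut lining was followed through 9 genes, read by symbol in a table of counts for 53379 genes: Aqp8, Aqp4, Slc26a3, Slc9a3, Slc12a2, Scnn1a, Cftr, Atp12a and Kcnn4. The genes are given by symbol, were picked with earlier results of these data known, and matched 1 row each. RNA was sequenced from 18 libraries, 3 for each of 6 groups: bulk liver and isolated epithelium titled small or large intestine, each from mice of 2 treatments. All recipients were female BALB/cJ mice of 6 to 8 weeks. Every mouse, controls included, was lethally irradiated and received 10000000 bone marrow cells; the control group (BM) received these alone, and the BMT group also received 1000000 T cells, which is the transplant used to produce graft-versus-host disease. Tissue was taken on day 7. There was no group without irradiation, the labels used here do not give the donor strain, and they do not state that replicates are separate animals, although the library descriptions carry separate mouse numbers. The p-values therefore measure the spread between these samples.

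Sample titles and library codes disagree on the part of the bowel. The set titled small intestine has LI in its library codes and the set titled large intestine has SI, so both names are given at first use and the codes afterwards. All 6 distal bowel markers (Hoxb13, Hoxd13, Hoxa13, Hoxd10, Car1 and Cyp2c55) were higher in every code LI library than in any code SI library. Of 9 small bowel markers, 8 were higher in every code SI library, and Hoxb13 was at 0 in all of those. The markers thus run with the codes and against the titles, and no library was moved to another group. Depth ran from 18845483 to 25610937 counts per library, so that a count of 0 allows up to 3 counts, or 0.117 to 0.159 counts per 1000000 counts of the library (CPM), by counting error only. Mitochondrial transcripts took 2.77 to 10.7% of counts and in each tissue were lower in all BMT libraries than in all BM ones. Summed epithelial markers (Epcam, Krt8, Krt18, Krt19, Krt20, Vil1 and Cdh1) were 15094 to 17351 CPM in BM and 20483 to 25631 CPM in BMT in the code LI libraries, and 15452 to 17279 and 19149 to 20554 CPM in the code SI libraries. Krt8 and Krt19 made most of these sums. Of the 7 markers, 4 were called higher in code LI and 2 in code SI. Epcam was 1501 to 1618 CPM in BM and 1560 to 1779 CPM in BMT in code LI. Summed T cell markers were 6.62 to 8.82 CPM in BM and 347 to 549.6 CPM in BMT in code LI, and 4.25 to 13 and 176 to 267 CPM in code SI. In such bulk RNA, fewer cells of a type and less RNA per cell cannot be told apart.

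Gut epithelium absorbs water behind salt. Sodium enters surface cells through sodium-hydrogen exchangers such as NHE3 (Slc9a3), which work in parallel with the chloride-bicarbonate exchanger DRA (Slc26a3), and in the distal bowel also through the epithelial sodium channel ENaC (alpha subunit, Scnn1a). Crypt cells secrete: NKCC1 (Slc12a2) loads chloride from the blood side, CFTR releases it to the lumen, and the potassium channel KCa3.1 (Kcnn4) keeps the driving force. Aqp8 and Aqp4 are water channels, on the apical and the basolateral side of intestinal epithelium respectively, and Atp12a is the non-gastric proton-potassium pump of the distal colon. Loss of DRA function causes chloride-losing diarrhea, and over-activity of CFTR drives the fluid loss of cholera.

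RefSeq promoter windows on GRCm38.p6 were matched for 5 of the 9 genes. The 250 bases before the start are shown for 3 of them, because Aqp8 was high only in code LI among the gut libraries while Slc9a3 and Cftr moved in opposite directions in both sets. Capitals mark matches on either strand to TTTAT, the core that caudal-type homeobox factors such as Cdx2 bind, or to GGGCGG, the GC box of Sp-family factors.
Aqp8, chr7:123462044-123462293, + strand: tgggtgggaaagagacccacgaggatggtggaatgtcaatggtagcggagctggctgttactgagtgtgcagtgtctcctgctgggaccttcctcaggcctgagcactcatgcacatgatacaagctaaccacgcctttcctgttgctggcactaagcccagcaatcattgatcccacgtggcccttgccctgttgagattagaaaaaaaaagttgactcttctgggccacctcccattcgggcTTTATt
Slc9a3, chr13:74121163-74121412, + strand: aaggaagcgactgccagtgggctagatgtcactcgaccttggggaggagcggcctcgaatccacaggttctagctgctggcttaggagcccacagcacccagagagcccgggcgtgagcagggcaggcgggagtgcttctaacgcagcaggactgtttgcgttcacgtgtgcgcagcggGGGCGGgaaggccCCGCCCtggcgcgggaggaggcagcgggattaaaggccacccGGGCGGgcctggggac
Cftr, chr6:18170437-18170686, + strand: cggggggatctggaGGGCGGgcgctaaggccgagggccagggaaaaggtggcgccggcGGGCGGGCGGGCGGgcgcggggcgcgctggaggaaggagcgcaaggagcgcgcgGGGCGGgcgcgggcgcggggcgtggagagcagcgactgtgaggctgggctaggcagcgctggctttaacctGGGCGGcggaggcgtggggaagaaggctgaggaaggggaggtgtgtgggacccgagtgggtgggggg
TTTAT matched once in Aqp8 and GGGCGG did not, whereas GGGCGG matched 3 times in Slc9a3 and 6 times in Cftr, with overlapping matches in Cftr, and TTTAT in neither. Of the other matched windows, Slc26a3 held 1 TTTAT and Kcnn4 1 GGGCGG. Among 32851 promoter windows of this length, 37.3% held TTTAT and 32.7% held GGGCGG. The steroid receptor half-site AGAACA, searched on both strands and present in 16.1% of all windows, was not in these 5. The matches describe the letters of the windows and nothing was measured at them.

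The genes lie at chr7:123462291-123468004 (Aqp8), chr18:15389394-15403684 (Aqp4), chr12:31390871-31473917 (Slc26a3), chr13:74121457-74169442 (Slc9a3), chr18:57878678-57946821 (Slc12a2), chr6:125320659-125344943 (Scnn1a), chr6:18170687-18322768 (Cftr), chr14:56365068-56388550 (Atp12a) and chr7:24370263-24386690 (Kcnn4), from the first to the last exon in the deposited table on GRCm38. The table gives each gene as its exons together, so the values are per gene and not per transcript.

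In the libraries titled small intestine (code LI), 7 of the 9 genes differed between BMT and BM, with 2 higher (Slc9a3 and Atp12a) and 5 lower (Aqp4, Cftr, Slc26a3, Aqp8 and Slc12a2). Calls were made at a Benjamini-Hochberg adjusted p of 0.05 from edgeR's quasi-likelihood test over all genes, which called 41.4% of the 14880 genes tested here, so the share among the 9 genes stands against a large general change. The same 7 genes had CPM ranges that did not overlap between the groups, as did 53.5% of genes tested. In the libraries titled large intestine (code SI), 5 of 7 tested genes differed: Slc9a3 was higher, and Aqp4, Slc12a2, Cftr and Kcnn4 were lower. There 23.4% of 14621 genes were called, and 39.2% had groups that did not overlap, against the same 5 of the 7 tested. Aqp8 and Atp12a were too low in code SI to be tested.

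**Figure D1:**
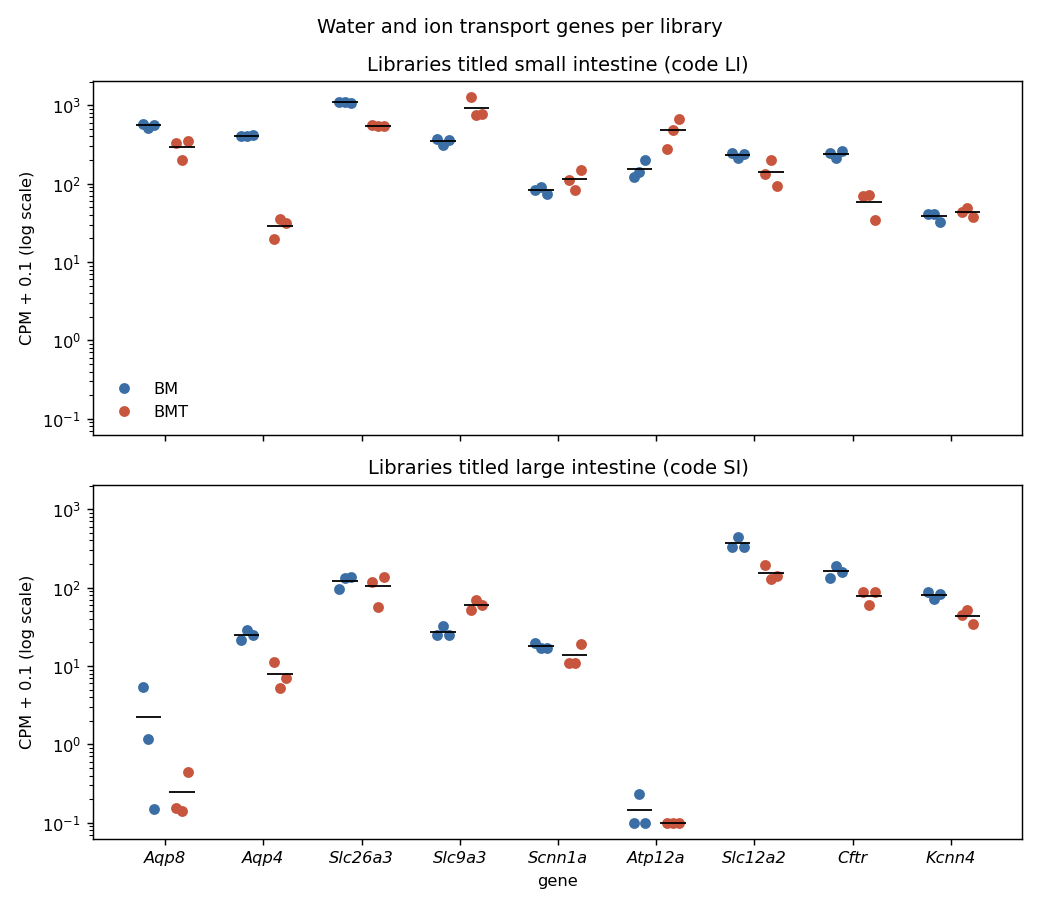
CPM of each gene in each library (CPM + 0.1, log axis; points are libraries, bars are means of 3) for BM and BMT in the libraries titled small intestine (code LI, upper panel) and large intestine (code SI, lower panel). Aqp4 and Cftr separate downward and Slc9a3 upward in both panels, while Atp12a lies at 120 to 675 CPM above and near 0 below.

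Both water channels were lower in BMT in code LI. Aqp4 was 409, 400 and 413 CPM in the 3 BM libraries and 19.4, 35.3 and 30.9 CPM in the 3 BMT libraries. The BM libraries lay close together, and each was more than 10 times as high as any BMT library. This was the largest fold change among the genes of the 9 that could be tested in either set, 14.1-fold lower (log2 -3.82 ± 0.22 (SE), adjusted p = 5.65e-07). In code SI, Aqp4 was 21.4, 29 and 24.5 CPM in BM and 11.2, 5.19 and 7.03 CPM in BMT, again without overlap. It fell there by 3.1-fold (log2 -1.63 ± 0.26 (SE), adjusted p = 0.00122).

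Aqp8 was 576, 514 and 566 CPM in BM and 327, 200.1 and 349 CPM in BMT in code LI. All BMT libraries were below all BM libraries, and BMT replicate 2 was the lowest. The gene was 1.86-fold lower in BMT (log2 -0.90 ± 0.21 (SE), adjusted p = 0.00596). Summed distal bowel markers were 11820 to 13208 CPM in these BM libraries and 5050 to 8556 CPM in BMT. Nearly all of that sum was Car1 and Cyp2c55, the only 2 of the 6 called lower. The other 4 are Hox genes and were not called. Their means in BM and BMT were 159 and 105 CPM (Hoxb13), 22.4 and 19.7 CPM (Hoxd13), 30.6 and 31.9 CPM (Hoxa13) and 0.734 and 0.37 CPM (Hoxd10). Hoxb13 was 41.9, 110 and 164 CPM in BMT replicates 1 to 3. The part of these markers in the Aqp8 result was not tested. In code SI, Aqp8 was 5.27, 1.09 and 0.0511 CPM in BM and 0.0531, 0.0429 and 0.343 CPM in BMT. Only BM replicates 1 and 2 stood clear of the rest. The summed distal bowel markers in BM replicates 1 to 3 were 650.2, 369 and 25.6 CPM. Of these, Car1 gave 558.7, 314.3 and 13.19 CPM and Cyp2c55 gave 91.5, 54.6 and 12.37 CPM. The other 4 markers, all Hox genes, were at 0 in every code SI library. Whether BM replicates 1 and 2 hold some distal tissue was not tested.

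The paired exchangers of salt absorption moved in opposite directions in code LI. Slc26a3 was 1091, 1103 and 1079 CPM in BM and 556, 536 and 541 CPM in BMT. Replicates of each treatment differed by only a few percent and the groups were far apart, with a 1.99-fold lower level in BMT (log2 -0.99 ± 0.12 (SE), adjusted p = 9.76e-05). In code SI it was 97, 131 and 138 CPM in BM and 117, 57.1 and 136 CPM in BMT. There the groups overlapped, BMT replicate 2 alone was low, and no difference was called (log2 -0.17 ± 0.28 (SE), adjusted p = 0.699, 95% interval -0.79 to 0.44).

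Slc9a3 was 372, 308 and 364 CPM in BM and 1270, 742 and 782 CPM in BMT in code LI. Every BMT library was above every BM library, with BMT replicate 1 the highest. It rose 2.69-fold (log2 1.43 ± 0.20 (SE), adjusted p = 0.000251). In code SI it was 24.6, 31.9 and 24.5 CPM in BM and 51.4, 68.7 and 60.2 CPM in BMT. The groups again did not overlap, and it rose 2.31-fold (log2 1.21 ± 0.18 (SE), adjusted p = 0.000659). Slc9a3 was the only one of the 9 genes called higher in both sets.

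Scnn1a was not called in either set. In code LI it was 83.6, 90.1 and 73.7 CPM in BM and 112, 82.7 and 150.4 CPM in BMT, and the groups overlapped through BMT replicate 2. The difference was log2 0.50 ± 0.22 (SE), adjusted p = 0.0895, and it was called higher when that library was left out (adjusted p = 0.0124) and when no low-count filter was used (adjusted p = 0.00385). In code SI it was 19.3, 16.8 and 16.9 CPM in BM and 10.9, 11 and 19.1 CPM in BMT, and BMT replicate 3 lay in the BM range. The difference was log2 -0.31 ± 0.25 (SE), adjusted p = 0.409, and without that library Scnn1a was called lower (adjusted p = 0.0268).

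Atp12a was 120.4, 139 and 202 CPM in BM and 275, 485 and 675 CPM in BMT in code LI. Replicates spread more than for the other absorptive genes, yet the lowest BMT library was above the highest BM library. The pump was 3.17-fold higher in BMT (log2 1.66 ± 0.32 (SE), adjusted p = 0.00188). In code SI it had 3 counts in 1 BM library and none in the other 5, so no change could be measured there.

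Among the secretory genes, Cftr was lower in BMT in both sets. In code LI it was 247, 211 and 257 CPM in BM and 70.1, 71.1 and 34.3 CPM in BMT. The groups were well apart, and BMT replicate 3 was the lowest. Cftr fell 4.09-fold (log2 -2.03 ± 0.22 (SE), adjusted p = 5.31e-05). In code SI it was 134, 190.1 and 160.2 CPM in BM and 89.2, 59.1 and 88.7 CPM in BMT, also without overlap. It fell 1.97-fold there (log2 -0.98 ± 0.20 (SE), adjusted p = 0.00472).

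Slc12a2 was 327, 438 and 333 CPM in BM and 196, 129 and 142 CPM in BMT in code SI. All BM libraries were above all BMT libraries, and the gene was 2.28-fold lower in BMT (log2 -1.19 ± 0.19 (SE), adjusted p = 0.00113). In code LI it was 249, 214 and 238 CPM in BM and 133, 198 and 92 CPM in BMT, and BMT replicate 2 came close to the BM range. The fall of 1.66-fold in code LI (log2 -0.73 ± 0.21 (SE), adjusted p = 0.0167) was not called without BM replicate 1 (adjusted p = 0.0615) or BM replicate 3 (adjusted p = 0.0629). Summed stem cell markers (Lgr5, Ascl2, Smoc2, Axin2, Rnf43 and Olfm4) were 1401 to 1652 CPM in BM and 489 to 509 CPM in BMT in code SI, where Slc12a2, Cftr and Kcnn4 were all lower, and were 103 to 119 and 83.7 to 137 CPM in code LI. Of the 6 markers, 5 were called lower in code SI, and in code LI 3 were lower (Lgr5, Smoc2 and Olfm4) and 1 higher (Ascl2). Summed cell cycle markers (Mki67, Top2a, Ccnb1, Cdk1, Aurkb and Mcm5) were 586 to 700 CPM in BM and 749 to 1285 CPM in BMT in code SI. In code LI they were 373 to 513 and 571 to 984 CPM. Of these 6, 2 were called higher in code SI and 5 in code LI, and none lower. The part of the stem cell or cell cycle markers in these results was not tested.

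Kcnn4 changed in code SI and was not called in code LI. In code SI it was 87.9, 71.9 and 83 CPM in BM and 44.9, 51.8 and 34 CPM in BMT. No BMT library reached the BM range, and the level was 1.81-fold lower (log2 -0.86 ± 0.17 (SE), adjusted p = 0.00504). In code LI it was 41.3, 40.6 and 32.2 CPM in BM and 42.8, 48.5 and 37.9 CPM in BMT. These ranges overlapped (log2 0.19 ± 0.14 (SE), adjusted p = 0.323, 95% interval -0.13 to 0.50). T cells also express Kcnn4, and the summed T cell markers given above were higher in BMT in both sets; their part in either value was not tested.

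**Figure D2:**
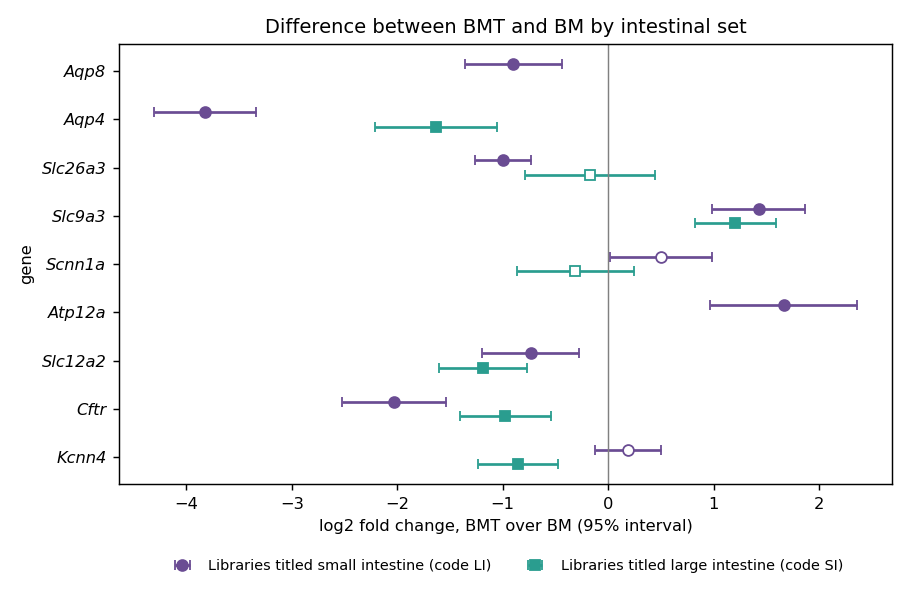
Log2 fold change of BMT over BM with its 95% interval for each gene, in the libraries titled small intestine (code LI, circles) and large intestine (code SI, squares); filled symbols are called at an adjusted p of 0.05, and Aqp8 and Atp12a were not tested in code SI. Slc9a3 lies to the right in both sets, Aqp4, Slc12a2 and Cftr lie to the left in both, and Kcnn4 is filled only in code SI.

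Whether the BMT difference itself differed between the 2 sets was tested in 1 model over all 18 libraries, with the mouse number as a block. Of the 9 genes 2 were called, against 4.91% of 17275 genes (2.51% higher and 2.4% lower). For Aqp4 the BMT difference was lower in code LI than in code SI by a log2 value of -2.30 ± 0.52 (SE, adjusted p = 0.0198). That call was lost without mouse 2 (adjusted p = 0.0716), mouse 4 (0.0643) or mouse 6 (0.109). For Kcnn4 it was higher in code LI by 1.02 ± 0.19 (SE, adjusted p = 0.0058), and this was called under all 11 alternatives run. For Slc26a3, Slc9a3, Slc12a2, Scnn1a and Cftr a difference between sets was not called, with 95% intervals of -1.58 to 0.05, -0.55 to 0.86, -0.32 to 1.11, 0.12 to 1.45 and -1.94 to -0.29 on the log2 scale. The intervals are for single genes, and those of Scnn1a and Cftr do not hold 0 although their adjusted p-values are 0.17 and 0.116. Cftr was called without the low-count filter (adjusted p = 0.000959) and without mouse 9 (0.0403), and Scnn1a in the 12 gut libraries alone (0.0407). Aqp8 and Atp12a were not called either (adjusted p = 0.246 and 0.179), and their near-absence from code SI leaves those fitted values without use, although Aqp8 was called without the low-count filter.

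**Figure D3:**
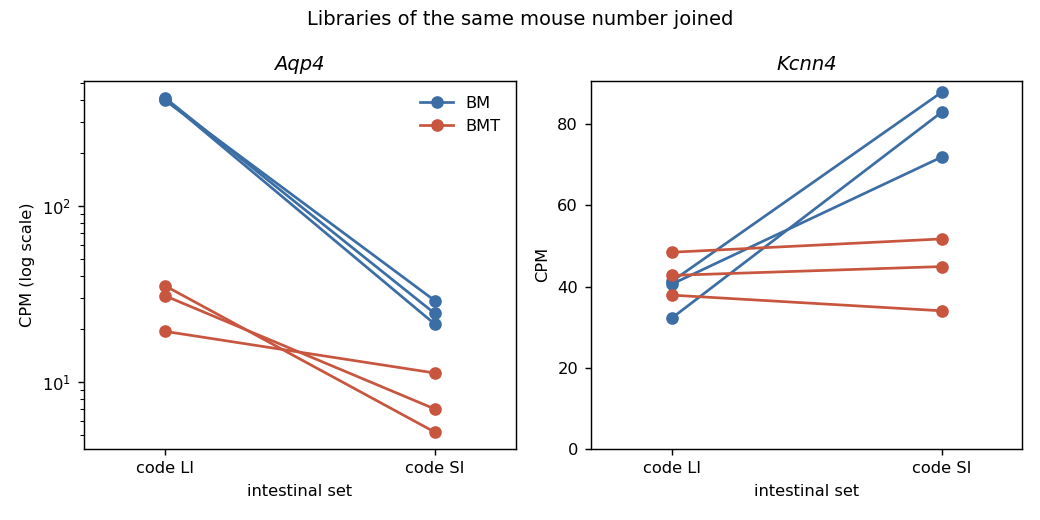
CPM of Aqp4 (left, log axis) and Kcnn4 (right, linear axis) in the code LI and code SI libraries, with lines joining libraries of the same mouse number, for 3 BM and 3 BMT mice. The BM and BMT lines of Aqp4 are far apart at code LI and nearer at code SI; those of Kcnn4 overlap at code LI and are apart at code SI.

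Within the 9 genes, levels of the 6 absorptive ones were far higher in code LI. Among BM libraries 7 of the 9 genes differed between the sets (27.1% of 17275 genes were called, 14% higher and 13.1% lower), with 6 higher in code LI and Kcnn4 lower. Atp12a had 10625 counts over the 3 code LI libraries against 3 over the code SI libraries, a depth-scaled ratio of 3340 with an exact 95% counting interval of 1142 to 16196. Those 3 counts were all in 1 library. For Aqp8 the ratio was 249 (211 to 296), with 116 of its 141 code SI counts in BM replicate 1; without that library it was 919.9 (623 to 1422). In fitted log2 values the differences of code LI over code SI in BM were 4.07 ± 0.39 for Aqp4, 3.71 ± 0.25 for Slc9a3, 3.19 ± 0.29 for Slc26a3, 2.24 ± 0.23 for Scnn1a and -1.07 ± 0.13 for Kcnn4 (SE). Neither Slc12a2 (log2 -0.62 ± 0.24 (SE), adjusted p = 0.0679) nor Cftr (log2 0.59 ± 0.27 (SE), adjusted p = 0.126) was called. Both were called without the low-count filter (adjusted p = 0.0095 and 0.012), and Slc12a2 also without mouse 9 (0.0352). The intervals on counts cover counting error only.

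Among BMT libraries the same 6 absorptive genes were higher in code LI (22% of 17275 genes were called, 12.3% higher and 9.64% lower). Atp12a was at least 10350-fold higher, with 31110 counts against 0 and a floor of 3 counts over the group, and the Aqp8 ratio was 1905 (1036 to 3973), or 6130.3 (1697 to 50624) without BMT replicate 3, which held 8 of the 10 code SI counts. Aqp4 differed by 1.77 ± 0.38 on the log2 scale, down from 4.07 in BM, Slc9a3 by 3.87 ± 0.26, Slc26a3 by 2.43 ± 0.28 and Scnn1a by 3.03 ± 0.23 (SE). For Kcnn4 no difference was called (log2 -0.05 ± 0.13 (SE), adjusted p = 0.843, 95% interval -0.33 to 0.23). The secretory genes Slc12a2 (log2 -0.22 ± 0.24 (SE), adjusted p = 0.573) and Cftr (log2 -0.53 ± 0.28 (SE), adjusted p = 0.202) were again not called, but Cftr was without the low-count filter (adjusted p = 0.0356).

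Ordered over the 6 groups by mean CPM, the genes differed in which neighbouring groups overlapped. Aqp8 ran from 552 ± 33.5 (SD, n = 3) in code LI BM to 292 ± 80.3 in code LI BMT, then to bulk liver and last to code SI, where BM and BMT overlapped. For Aqp4, code LI BMT (28.5 ± 8.2 CPM) had come down into the range of code SI BM (25 ± 3.86 CPM). Slc9a3 had 4 separate levels in the gut, from 931 ± 294 CPM in code LI BMT down to 27 ± 4.22 CPM in code SI BM. Slc12a2 was highest in code SI BM (366 ± 62.4 CPM) and Cftr in code LI BM (238 ± 24.1 CPM), and for both the BMT libraries of the 2 sets overlapped. Within the gut, Kcnn4 stood apart only in code SI BM (80.9 ± 8.19 CPM), since the other 3 gut groups overlapped with their neighbours.

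Per kilobase of exon, which allows levels of different genes to be compared, the order of the 9 genes changed with BMT. In code LI BM, Aqp8 (349 CPM per kb) and Slc26a3 (171 CPM per kb) led, followed by Aqp4 (80.1 CPM per kb) and Slc9a3 (63.2 CPM per kb). By mean in code LI BMT, Aqp8 (185 ± 50.8 CPM per kb, SD) was followed by Slc9a3 (169 ± 53.4 CPM per kb) and Atp12a (119 ± 49.8 CPM per kb). These spreads overlap, so the libraries do not settle the order among them. Aqp4 had gone from the third place to the last (5.62 ± 1.61 CPM per kb), near Cftr (7.54 ± 2.7 CPM per kb). Slc26a3 thus had a higher mean level than Slc9a3 in BM and a lower one in BMT. Code SI BM was led by the secretory gene Slc12a2 (56.2 CPM per kb). Cftr (20.8 ± 3.61 CPM per kb, SD) and the absorptive Slc26a3 (19.1 ± 3.42 CPM per kb) lay close together after it. Slc12a2 still had the highest mean in code SI BMT (23.9 CPM per kb). Slc26a3 (16.2 ± 6.48 CPM per kb), Slc9a3 (10.9 ± 1.57 CPM per kb) and Cftr (10.2 ± 2.21 CPM per kb) followed there. Added up, the 9 genes made 3021 to 3224 CPM in code LI BM and 2398 to 2805 CPM in code LI BMT, and 717 to 909.9 and 382 to 521 CPM in code SI.

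**Figure D4:**
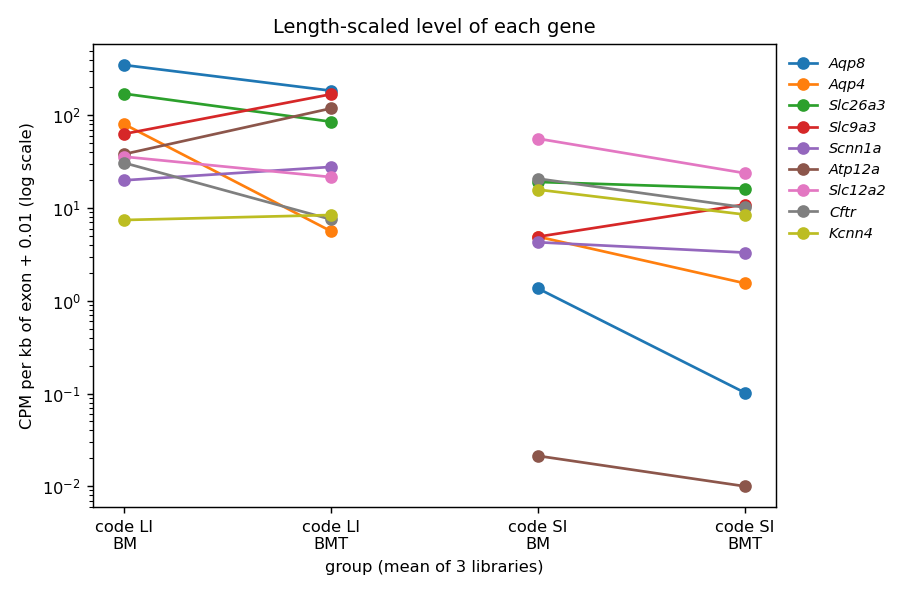
Mean CPM per kilobase of exon (plus 0.01, log axis; means of 3 libraries) of each gene in the 4 gut groups, with lines joining BM and BMT of the same set. In code LI the Aqp4 and Cftr lines drop below most others while Slc9a3 and Atp12a rise past Slc26a3; in code SI Slc12a2 is highest in both groups.

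In bulk liver, 2 of the 5 genes with enough counts were called, against 10.8% of 14134 genes (7.46% higher and 3.35% lower), and the same 2 did not overlap between groups, as was true of 39.2% of genes. Aqp8, also a hepatocyte water channel, was 99.6, 70.9 and 72.6 CPM in BM and 22.8, 29.4 and 19.2 CPM in BMT, with the groups well apart. It was 3.01-fold lower (log2 -1.59 ± 0.23 (SE), adjusted p = 0.00612). Kcnn4 was 0.272, 0.318 and 0.326 CPM in BM and 1.71, 2.27 and 1.89 CPM in BMT, 7.13-fold higher (log2 2.83 ± 0.29 (SE), adjusted p = 0.00222). Summed T cell markers were 3.94 to 7.74 CPM in BM and 64.2 to 66 CPM in BMT in the liver, and summed myeloid markers 83.8 to 107 and 216 to 555 CPM, with all 10 and 5 of 6 called higher. The part of these cells in the Kcnn4 value was not tested. Aqp4, Slc12a2 and Scnn1a were not called, and Slc26a3, Slc9a3, Cftr and Atp12a were too low in liver to be tested.

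Beyond the 9 genes, 58 further transport genes from 6 lists were read in the same fits, of which 47 were tested in each set. In code LI, 7 were higher and 20 lower, with a median log2 fold change of -0.35 against 0.00 for all genes tested. In code SI, 10 were higher and 9 lower, with a median of 0.18 against 0.02. Shares of all genes called higher and lower were 20.4% and 21% in code LI and 11.6% and 11.8% in code SI.

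The list of electroneutral absorption and bicarbonate transport had 1 gene higher and 6 lower of 12 tested in code LI. Slc5a8, which takes up short-chain fatty acids with sodium, fell 5.35-fold (log2 -2.42 ± 0.15 (SE), adjusted p = 1.05e-06), and Slc16a1, the monocarboxylate carrier MCT1, fell 2.39-fold (log2 -1.26 ± 0.12 (SE), adjusted p = 1.69e-05). The scaffold NHERF1 (Slc9a3r1), a binding partner of NHE3 and CFTR, rose in code LI (log2 0.75 ± 0.18 (SE), adjusted p = 0.00753), as Slc9a3 did. In code SI 2 genes were higher and 2 lower of 13 tested. There Slc9a2 (NHE2) rose 2.01-fold (log2 1.01 ± 0.18 (SE), adjusted p = 0.00223) and the scaffold NHERF2 (Slc9a3r2) fell 3.9-fold (log2 -1.96 ± 0.30 (SE), adjusted p = 0.000833). Slc9a3r1 was higher there (log2 0.63 ± 0.17 (SE), adjusted p = 0.0201), a call lost without BM replicate 2 (adjusted p = 0.113) or 3 (0.0663). Pdzk1, another scaffold, was lower (log2 -0.64 ± 0.16 (SE), adjusted p = 0.0158), a call lost without BM replicate 1 (0.057) or BMT replicate 1 (0.0554) or 2 (0.0532).

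Of the genes for the sodium channel and its regulators, 1 was higher and 5 were lower of 10 tested in code LI. Nr3c2, the mineralocorticoid receptor, fell 2.24-fold (log2 -1.17 ± 0.13 (SE), adjusted p = 7.03e-05). Nedd4l, the ubiquitin ligase that removes ENaC from the membrane, fell 2.01-fold (log2 -1.01 ± 0.14 (SE), adjusted p = 0.000219). The other 3 lower genes were Hsd11b2, the enzyme that shields this receptor from glucocorticoids (log2 -1.95 ± 0.29 (SE), adjusted p = 0.000384), the protease gene Prss8 and the beta subunit Scnn1b, all 3 chosen here after their values were seen. Scnn1b was 11.3, 12.5 and 10.3 CPM in BM and 2.42, 3.73 and 8.2 CPM in BMT (log2 -1.22 ± 0.38 (SE), adjusted p = 0.0261), a call lost without any 1 BM library or BMT replicate 2 (adjusted p up to 0.0991). The gamma subunit Scnn1g was not called (log2 0.38 ± 0.32 (SE), adjusted p = 0.372). Per kb, the subunits in code LI stood at 20 (Scnn1a), 4.32 (Scnn1b) and 1.29 (Scnn1g) CPM in BM, so the alpha subunit was the most abundant. The protease gene St14 was the 1 higher gene in code LI (log2 0.48 ± 0.17 (SE), adjusted p = 0.0452), a call lost under the replicate block and without any 1 BM library or BMT replicate 3 (adjusted p up to 0.146).

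In code SI, 3 ENaC regulators were higher and 2 lower of 8 tested. Sgk1, a kinase that holds ENaC and NHE3 at the membrane, rose 2.67-fold (log2 1.42 ± 0.21 (SE), adjusted p = 0.000723). Tsc22d3, a glucocorticoid-induced gene known as GILZ, rose 1.76-fold (log2 0.81 ± 0.14 (SE), adjusted p = 0.00164). Hsd11b2 fell 2.53-fold (log2 -1.34 ± 0.25 (SE), adjusted p = 0.00316), as it did in code LI. Nedd4l was lower (log2 -0.52 ± 0.15 (SE), adjusted p = 0.0264), a call lost without any 1 BM library or BMT replicate 1 or 2 (adjusted p up to 0.102).

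Of the genes for chloride and potassium secretion, 3 were higher and 5 lower of 12 tested in code LI, and 2 were higher and 3 lower of 12 in code SI. Kcne3, the subunit that keeps the basolateral channel Kcnq1 open in crypt cells, fell 2.83-fold in code LI (log2 -1.50 ± 0.20 (SE), adjusted p = 0.000211) and 2.09-fold in code SI (log2 -1.06 ± 0.16 (SE), adjusted p = 0.000729). Kcnq1 fell 2.51-fold in code SI (log2 -1.33 ± 0.14 (SE), adjusted p = 9.58e-05), and the calcium-activated chloride channel Ano1 fell 2.13-fold in code LI (log2 -1.09 ± 0.13 (SE), adjusted p = 8.03e-05). Kcnk6, a two-pore potassium channel, rose in code LI (log2 0.74 ± 0.16 (SE), adjusted p = 0.00445) and Clca4b in code SI (log2 1.42 ± 0.28 (SE), adjusted p = 0.00418). Slc12a4, the cotransporter KCC1, which is widely expressed, had mean levels of 0.209 CPM in BM and 4.98 CPM in BMT in code LI and rose in both sets (log2 4.46 ± 0.46 (SE), adjusted p = 3.40e-05 in code LI and log2 2.32 ± 0.49 (SE), adjusted p = 0.00613 in code SI). The T cell sums given above were higher in BMT beside it, and their part was not tested.

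Among the other aquaporins, 2 of 2 tested in code LI were lower. Aqp1 was 89.1, 86.8 and 82.2 CPM in BM and 10.2, 10.5 and 11.3 CPM in BMT, 8.01-fold lower (log2 -3.00 ± 0.14 (SE), adjusted p = 1.62e-07). It was also lower in code SI (log2 -1.91 ± 0.18 (SE), adjusted p = 3.28e-05). Endothelial and red blood cells express Aqp1. Summed endothelial markers were 2.47 to 3.26 CPM in BM and 3.43 to 5.46 CPM in BMT in code LI. The erythroid sums there were 0.547 to 5.25 and 0.238 to 0.853 CPM. In code SI the endothelial sums were 0.724 to 1.05 and 1.41 to 2.27 CPM and the erythroid sums 4.21 to 26.9 and 0.371 to 2.36 CPM. The endothelial sums were mostly Pecam1, at 2.47 to 3.21 CPM in BM and 3.24 to 5.28 CPM in BMT in code LI. Of the 3 endothelial markers, 1 was tested in each set, not called in code LI and called higher in code SI. The part of endothelial or red blood cells was not tested. Aqp11 was lower in code LI (log2 -0.70 ± 0.17 (SE), adjusted p = 0.00754), and Aqp7, a glycerol channel, rose 3.76-fold in code SI (log2 1.91 ± 0.23 (SE), adjusted p = 0.000185).

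The sodium-potassium pump had 1 gene higher and 1 lower in each set, of 6 and 5 tested. Fxyd5, a pump regulator that leukocytes also express, had mean levels of 0.596 CPM in BM and 51.8 CPM in BMT in code LI. It rose 86.5-fold in code LI (log2 6.43 ± 0.25 (SE), adjusted p = 8.19e-08) and 28.5-fold in code SI (log2 4.83 ± 0.38 (SE), adjusted p = 1.25e-05), beside the higher T cell sums. Summed myeloid markers were 2.69 to 3.79 CPM in BM and 17.1 to 86.1 CPM in BMT in code LI, and 7.33 to 12.6 and 6.35 to 11.5 CPM in code SI. The part of either cell type was not tested. Fxyd3, an epithelial pump regulator, fell in both (log2 -1.08 ± 0.17 (SE), adjusted p = 0.000546 in code LI, log2 -1.30 ± 0.25 (SE), adjusted p = 0.00343 in code SI). In the guanylin axis, whose receptor raises cyclic GMP and opens CFTR, the peptide gene Guca2b (uroguanylin) rose in code LI (log2 1.22 ± 0.15 (SE), adjusted p = 0.000119) and code SI (log2 0.87 ± 0.16 (SE), adjusted p = 0.00234). The receptor Gucy2c fell 1.98-fold in code LI (log2 -0.98 ± 0.13 (SE), adjusted p = 0.00022).

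**Figure D5:**
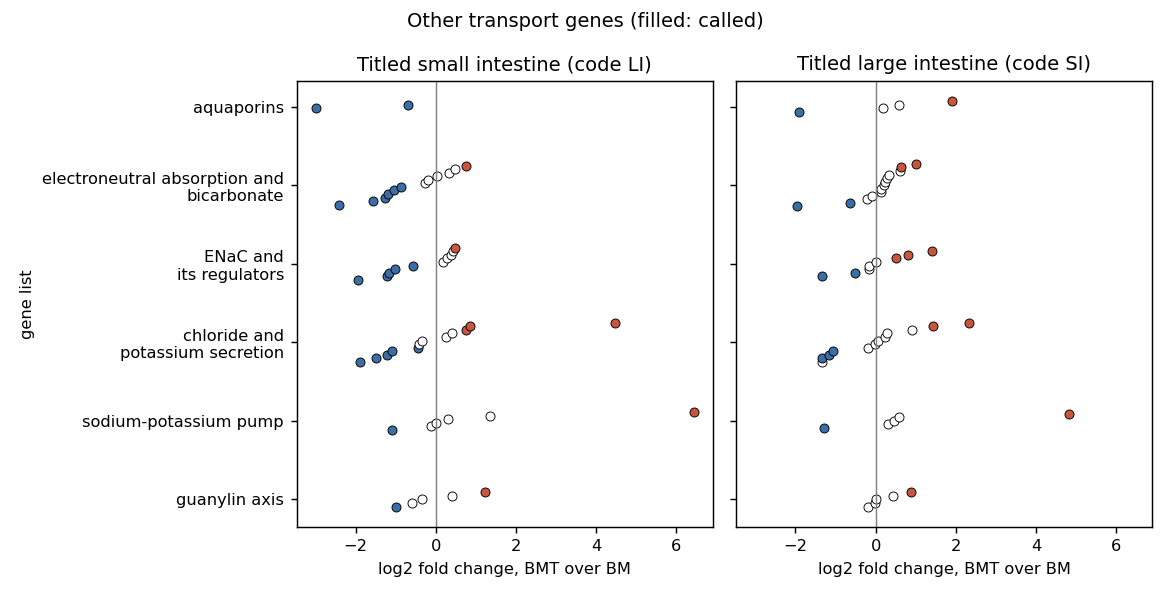
Log2 fold change of BMT over BM for the transport genes outside the 9, by list, in code LI (left) and code SI (right); each point is a gene tested, filled red if called higher and blue if called lower, open if not called. More points are blue than red in code LI (20 against 7), and the points farthest right are Fxyd5 and Slc12a4.

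The genes with the most similar profiles over the 12 gut libraries were found among 10025 genes by the root mean square difference of centred log2(CPM + 1) values. These values describe likeness only. Nearest to Aqp8 was Car2 (0.421), a carbonic anhydrase. For Aqp4 the nearest genes were Afm, Cela1 and Vsig2 (0.613 for the first), for Slc26a3 Itih5, Setbp1 and B3gnt5 (0.305), and for Slc9a3 Tnip3, Hk1 and Gpr137b-ps (0.469). Slc12a2 was nearest to Klf11, Prps2 and Zfp59 (0.219), Scnn1a to Saa2, Epn3 and Slc17a9 (0.237), and Cftr to Slc25a36, Arhgef38 and Klhl24 (0.218). Kcnn4 had the closest neighbours, Fpgs, Trim28 and Shf (0.163). Atp12a and Aqp8 shared neighbours at larger distances, Thbs4 (0.642 and 0.814) and St6galnac6 (0.956 and 0.78), which were also far lower in code SI than in code LI. In code LI their means in BM and BMT were 164 and 178 CPM (Thbs4) and 577 and 658 CPM (St6galnac6), while Atp12a rose and Aqp8 fell there. None of the 9 genes was among the 3 nearest of another.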

How the data were processed

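RNA of 18 libraries (bulk liver and 2 sets of isolated gut epithelium) was polyA-selected and read as paired ends from a stranded kit, per the labels' protocols. The table the authors deposited holds raw, whole-number read counts, one row per gene, with exon coordinates and lengths. Per the submitters' processing notes, the build was GRCm38.p5 and the tools FastQC 0.11.9, STAR 2.7.0e and featureCounts 1.6.3. Neither the strand setting nor the annotation release of the counting is stated in the labels used here, so reads of overlapping or antisense genes cannot be told apart. Symbols were matched for 53274 of 53379 gene IDs, and 0.00257% of counts had none.

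CPM were computed on total counts, and CPM per kb on exon length. Separate fits per tissue used edgeR 4.0.16 (R 4.3.3, expression filter by group, TMM scaling, two-sided quasi-likelihood F-test, Benjamini-Hochberg adjustment over all genes tested, threshold 0.05). The SE is the size of the log2 fold change over the square root of F. Comparisons between gut sets used a joint model of all 18 libraries in which the mouse was a block, since 6 mouse numbers recur in every tissue, beside terms for tissue and for treatment in each tissue. For libraries of the same mouse, deviations from group means correlated at -0.23 to 0.38 between the gut sets, so this pairing rests on the descriptions. The fits were also run on simulated counts. These held no mouse effect and fewer changed genes than were called here, so that run checks the code only. No replicates were duplicates (chi-square over its degrees of freedom, 9.86 to 187).

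The 9 genes and all lists were chosen with earlier results of these data known. A marker of the distal bowel list is not reported here and was left out of its counts and sums. All 9 genes were named in every comparison; of the other transport genes, the 2 called genes with the smallest p per list, set and direction were named, besides those said to be chosen later and, for the difference between gut sets, all called. For each of the 9 genes, the 3 nearest profiles with a mean of at least 5 CPM were taken. Alternatives were DESeq2 1.42.0, RLE scaling, no low-count filter, a replicate block, lane L002 only (4 libraries ran on L001), each library or mouse left out, the 12 gut libraries only and, for CPM, TMM effective library sizes; leaving out each library for the Aqp8 ratio between sets was chosen after seeing the data.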

Additional observations from a re-analysis of the deposited data

Results flagged for a closer look

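Of the 9 genes, 2 had a BMT difference that was not the same in the 2 gut sets by edgeR's quasi-likelihood test of the difference itself, with p-values adjusted over all genes. Of the 58 further transport genes 51 were tested and 10 called, 1 higher and 9 lower, while 4.91% of all genes tested were called. Values are log2 differences of the BMT effect, code LI minus code SI, and the 2 effects use separate libraries of the same 6 mice.

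Of the 9 genes, Aqp4 differed by -2.30 (adjusted p = 0.0198) and Kcnn4 by 1.02 (adjusted p = 0.0058); the dependence of the Aqp4 value on mice 2, 4 and 6 is given with the result. Among the other transport genes the fatty acid carriers Slc5a8, at -2.68 (adjusted p = 0.00012), and Slc16a1, at -1.42 (adjusted p = 0.00288), and the sodium bicarbonate cotransporter Slc4a7, at -1.79 (adjusted p = 0.00337), differed in the direction of a lower BMT level in code LI, and no alternative ended these 3 calls.

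The other 7 calls were each lost under at least 1 alternative. Aqp1 differed by -1.11 (adjusted p = 0.0127) and Gucy2c by -1.01 (adjusted p = 0.00864), and both calls were lost without mouse 4 (adjusted p = 0.0706 and 0.0534). Kcnq1 differed by 0.85 (adjusted p = 0.0194), in the same direction as Kcnn4, and was not called without mouse 2 (0.0625), 4 (0.139) or 6 (0.0593). Ano1 differed by -1.22 (adjusted p = 0.0377) and was not called without mouse 4 (0.15), 5 (0.0718), 6 (0.118), 9 (0.0796) or 10 (0.0692). Nr3c2 differed by -0.98 (adjusted p = 0.0281) and was not called without mouse 2 (0.111), 4 (0.0641), 5 (0.0827), 6 (0.0918) or 10 (0.116), nor without the mouse block (0.079). Slc26a2, a sulfate transporter, differed by -1.26 (adjusted p = 0.0366) and was not called without mouse 2 (0.123), 4 (0.1), 5 (0.092), 6 (0.136) or 10 (0.0679). The potassium channel Kcnk5 differed by -0.69 (adjusted p = 0.0417) and was not called without any 1 mouse (adjusted p up to 0.129), without the mouse block (0.248), with RLE scaling (0.0612), without the low-count filter (0.0963) or in the 12 gut libraries alone (0.054).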

How the results depend on the processing

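Of 528 values of the 9 genes under an alternative, 499 kept their direction and their side of the threshold, 5 lost a call, 11 gained one and 13 changed sign. The 13 were log2 differences that were not called. Slc26a3 in code SI became 0.12 without BMT replicate 2, with a range of -0.46 to 0.12 over the libraries left out. The lane L002 setting gave the same 0.12 because it is the same fit there. In each gut set L001 held only a BMT library, replicate 3 in code LI and replicate 2 in code SI. The counts above hold these repeated fits under both names. In liver, Slc12a2 became 0.0178 with the replicate block, 0.22 without BM replicate 1 and 0.0211 without BMT replicate 2 (range -0.28 to 0.22), and Aqp4 became -0.13 without BM replicate 3, -0.53 without BMT replicate 2 and -0.84 on lane L002 (range -0.53 to 0.57). Between the sets in BMT, Kcnn4 became 0.0189 in the 12 gut libraries and Slc12a2 0.00867 without mouse 10 (range -0.63 to 0.01). The difference of BMT effects became -0.0489 and -0.21 for Slc9a3 without mouse 4 and 6 (range -0.21 to 0.40), and -0.0164 for Slc12a2 without mouse 9 (range -0.02 to 0.63). The cause was not tested.

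For that difference, 848 genes and 2 of the 9 were called; without a low-count filter these were 1842 and 4, and DESeq2 called 1314 genes. Leaving out 1 mouse gave 297 to 1121 genes and 1 to 3 of the 9, which is also a loss of samples. Leaving out 1 library gave 4821 to 7220 genes and 6 to 8 of the 9 in code LI, 2086 to 3775 and 5 to 7 in code SI, and 569 to 2617 and 2 in liver. Leaving out 1 mouse, 2829 to 4997 genes differed between the sets in BM and 2404 to 3912 in BMT.

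Replicate numbers in the titles name different mice in BM and BMT and correlated at -0.27 to 0.47, so they do not pair samples. With them as a replicate block, 5367 genes and 7 of the 9 were called in code LI, 3028 and 5 in code SI, and 1630 and 2 in liver. Without the mouse block, 881 genes and 2 of the 9 were called for the difference of BMT effects. With TMM effective library sizes, 31 of 54 group mean CPM values moved by less than 1 SD. Those that moved more were lower in gut groups and higher in liver. For example, Aqp8 in code LI BM went from 552 to 471 CPM and Kcnn4 in liver BMT from 1.96 to 3.07 CPM. The order of levels over groups and the levels per kb rest on CPM of total counts. With 3 libraries a group, a p that misses the threshold does not show equal levels, and near 0 counts Aqp8 and Atp12a in code SI allow no comparison of treatments.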
